A study of Mus musculus with 18 samples.

Results

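RNA from bone marrow-derived macrophages labelled HDAC3 KO was compared between coculture with non-apoptotic cells (NACs) and no treatment. The 6 libraries were chosen by their sample titles, 3 with NACs and 3 untreated, from 18 libraries in 6 groups. The study examined how macrophages that lack histone deacetylase 3 (HDAC3) clear dying cells. Its other 12 libraries, those labelled WT and those given apoptotic cells (ACs), were used where a difference from them was tested or set beside these results. The HDAC3 KO macrophages came from M-HDAC3-/- mice, in which a loxP-flanked part of Hdac3 is removed by Cre under the Lyz2 promoter, a promoter active in macrophages, monocytes and neutrophils. Deletion therefore depends on Cre activity in each cell, and marrow cells in which the promoter is silent keep the intact gene. The libraries labelled WT came from controls that the study calls HDAC3 f/f, which carry the loxP sites without Cre. Marrow cells of both labels were differentiated in medium conditioned by L929 fibroblasts, a source of macrophage colony-stimulating factor. NACs were living K562 cells, a human leukemia line, left with the macrophages for 45 min and then washed away, and the macrophages were kept for a further 5 h. ACs were K562 cells given UV-B for 15 min before the same coculture. Ages of the marrow donors were not given in the sources used here. Each group had 3 biological replicates, and p-values measure the spread between these samples alone.

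Macrophages recognize dying cells through phosphatidylserine. Receptors such as MERTK and AXL reach it through the bridging ligand GAS6, and integrins reach it through the bridging ligand MFGE8. The macrophages then draw actin around the target and digest it in lysosomes. This clearance of apoptotic cells is called efferocytosis, and living cells normally escape it because they keep phosphatidylserine inside and show signals such as CD47 that restrain engulfment. HDAC3 is a histone deacetylase that acts with corepressors such as NCOR1 and is required for part of the inflammatory gene response of macrophages. The comparison of NACs with untreated cells therefore sets macrophages labelled as having met living human cells beside macrophages labelled untreated.

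The libraries held 4704491, 26421267 and 25379897 counts untreated, and 20621976, 9431435 and 20077532 counts with NACs. Untreated replicate 1 stood apart. It had the fewest counts, 86.47% of them on protein-coding genes and 10.39% on lincRNA genes, against 97.29% to 98.36% and 1.053% to 1.99% in the other 5. The first principal component, 44.9% of the variance, separated the groups, and the second, 36.1%, placed untreated replicate 1 on the opposite side to the other 2 untreated libraries. Pearson's r of log2 levels across genes was 0.857 to 0.962 between untreated replicates, 0.956 to 0.968 between NACs replicates, and 0.827 to 0.930 between the groups. The libraries also differed in base composition. The mean GC content of the counted genes, weighted by their counts, was 55.26%, 54.34% and 54.24% untreated and 52.77%, 53.39% and 53.23% with NACs, so the groups did not overlap.

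Hdac3 itself, the targeted gene, did not separate the labels. Its level ranged from 8.44 to 59.1 CPM (counts scaled to equal library totals) in untreated HDAC3 KO libraries, from 4.85 to 54.3 with NACs and from 11.2 to 45.6 with ACs. In libraries labelled WT it ranged from 3.66 to 67.2 untreated, 10.2 to 45.3 with NACs and 7.25 to 40.1 with ACs. All 6 ranges overlapped. A transcript that lacks the deleted part still gives counts over the rest of the gene, so counts per gene do not check the deletion, and the genotype here is the label alone. No gene was used to check the treatment either, so untreated and NACs are also the labels alone, and whether any library was exchanged between groups was not tested. Within the 6 libraries, Hdac3 was at 35.7, 10.1 and 64.2 CPM untreated and 4.88, 31.3 and 44.3 with NACs, a log2 difference (NACs minus untreated) of -0.45 with a standard error of 0.77 and an adjusted p of 0.706 in edgeR. These CPM, and all below unless stated, were scaled by TMM, which matches libraries on the bulk of their genes.

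The cells expressed macrophage genes in both groups. All 10 macrophage markers were detected, among them the receptor for macrophage colony-stimulating factor Csf1r, Adgre1 (F4/80) and the lysosomal glycoprotein Cd68. Their summed level was 6811 to 17237 CPM untreated and 11315 to 21560 with NACs. Of these 10, Lyz2 alone was called, and higher, near the 6.2% of all genes called higher. Csf1r, Adgre1 and Cd68 differed by -0.77, 0.49 and -0.57 on the log2 scale, with adjusted p of 0.341, 0.580 and 0.381. Without untreated replicate 1 these differences were -1.24, 0.029 and -1.0, with adjusted p of 0.0133, 0.957 and 0.0269. In that fit 3 of the 10 were called lower, Csf1r and Cd68 among them, and 1 higher, against 13.8% and 21.7% of all genes. The sign for Adgre1 turned with a correction for GC content. Mouse erythroid genes, the closest counterpart of K562 genes that a mouse annotation holds, summed to 22.4 to 37.2 CPM untreated and 15.8 to 35.7 with NACs, and 4 of 15 (Hba-a2, Hbb-bh1 and Hemgn among them) were at 0 in all 6 libraries. Reads were aligned to mouse alone, and the part of human reads in any value was not tested. Markers of other cell types were detected as well. Granulocyte markers summed to 366 to 1008 CPM untreated and 321 to 883 with NACs, B cell markers to 43.7 to 117 and 34.5 to 44.7, and T and NK cell markers to 16.7 to 94.7 and 7.62 to 33.6. For 3 lists the sums did not overlap. The dendritic cell list summed to 681 to 907 CPM untreated and 260 to 579 with NACs, but nearly all of that was Bst2, also an interferon-stimulated gene, with means of 793 and 417 CPM. Of the other 9 genes, Batf3 had means of 2.26 and 1.05 CPM and 8 were too low to test. The sums for fibroblast markers were 67.6 to 106 and 8.65 to 48.8, and those for endothelial markers 75.7 to 142 and 43.5 to 63.9, most of the latter from Eng, with means of 84.9 and 34.6 CPM. Thy1, a surface protein of fibroblasts and T cells, was the only gene of these marker lists for other cell types that was called. Over all genes, 6.2% were called higher and 0.338% lower. Thy1 was at 2.08, 3.54 and 1.88 CPM untreated and 0.440, 0.366 and 0.488 with NACs (log2 difference -2.52, SE 0.58, adjusted p = 0.0412). Without untreated replicate 1, 2 fibroblast markers, Thy1 among them, and the endothelial marker Eng were called lower, against 13.8% of all genes. Eng was then at -1.57 on the log2 scale (adjusted p = 0.0040). In bulk RNA, fewer cells of a type and less RNA per cell cannot be told apart, and the part of these cells in the results below was not tested.

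With NACs, 753 genes were called higher and 41 lower, out of 12143 tested (edgeR quasi-likelihood test, Benjamini-Hochberg adjusted p under 0.05). The called genes were 6.54% of those tested, 6.2% higher and 0.338% lower. All 794 differed by more than 1 on the log2 scale, and the smallest adjusted p was 0.0353. Called-higher genes had a median log2 difference of 1.84 and called-lower genes of -1.54, against -0.03 over all genes tested. No overlap between the groups was seen for 750 of the 753 and for all 41, and for 37.0% of all genes tested (24.1% higher, 12.9% lower with NACs). Groups without overlap therefore add little to a call in what follows, and were common among uncalled genes too. The calls stood close to the threshold, and their number depended on the libraries and on the scaling. Without untreated replicate 1, 2713 genes were called higher and 1728 lower (35.5% of 12493), and 791 of the 794 genes were among them in the same direction. With any 1 of the other 5 libraries left out no gene was called, with 2026 to 3463 genes at an unadjusted p under 0.05, which compares with 3690 over all 6 libraries. With the size factors of DESeq2 in place of TMM no gene was called either, with 4004 at an unadjusted p under 0.05, whereas the Wald test of DESeq2 called 1329 higher and 979 lower. The median over all genes shifted to -0.21 with those size factors and to 0.30 with library totals alone.

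**Figure D1:**
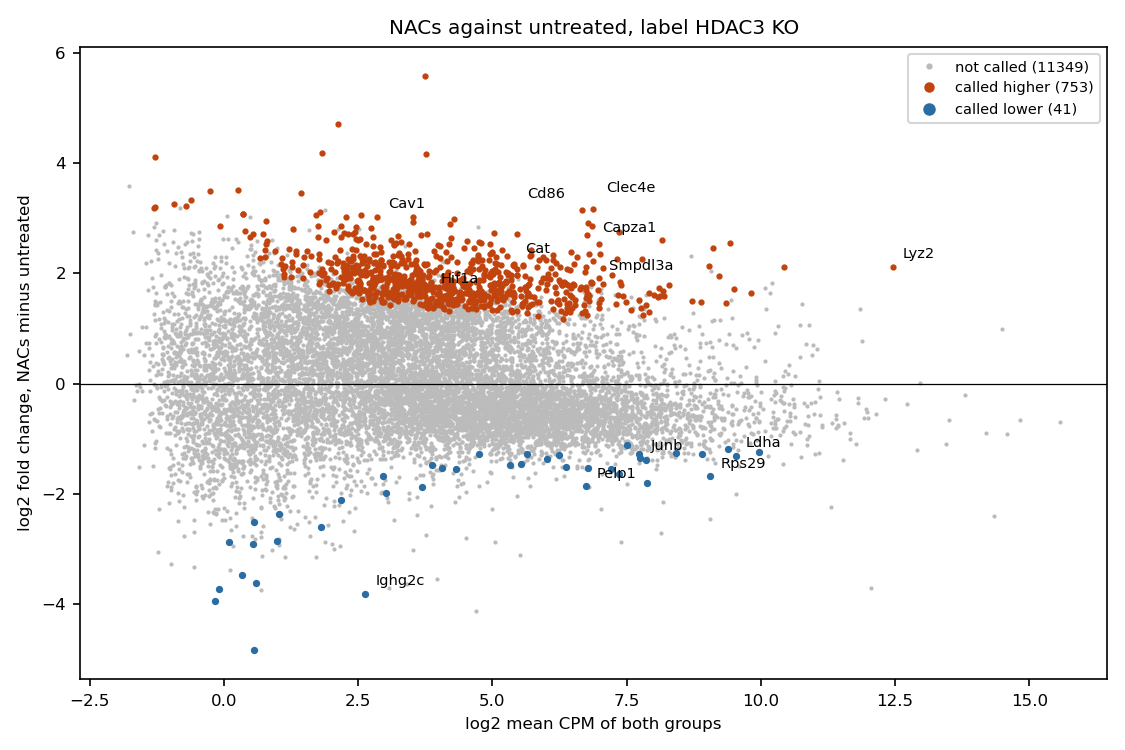
Log2 difference of NACs minus untreated (vertical axis) for each of 12143 genes against its mean level in both groups (log2 CPM), with called genes coloured by direction and a few named. The 753 called-higher genes lie above 1 and the 41 called-lower genes below -1, around an all-gene median of -0.03.

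The difference between the groups followed the GC content of the genes. The called-higher genes had a median GC content of 44.7%, and 96.5% of them lay below the all-gene median of 50.9%. The called-lower genes had a median of 55.6%, and 14.6% lay below it. With the tested genes divided into 10 bins of rising GC content, the median log2 difference was 1.23 in the lowest (27.5% to 43.0% GC), 0.11 in the fifth and -0.62 in the highest (58.2% to 74.7%). The 2 lowest bins held 214 and 249 called-higher genes, and the 3 highest held 0, 2 and 0. With an offset that removes the trend with GC content and length in each library, the bins had medians from -0.19 to 0.07 and no gene was called, with 1927 at an unadjusted p under 0.05. With both that offset and untreated replicate 1 left out, 440 genes were called higher and 578 lower (8.15%, 3.52% and 4.63%), and 180 of the 753 and 23 of the 41 were among them in the same direction. In libraries labelled WT the bins went the other way, from -0.77 to 0.83. Whether GC content is a property of the libraries or of the genes that differed was not tested.

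**Figure D2:**
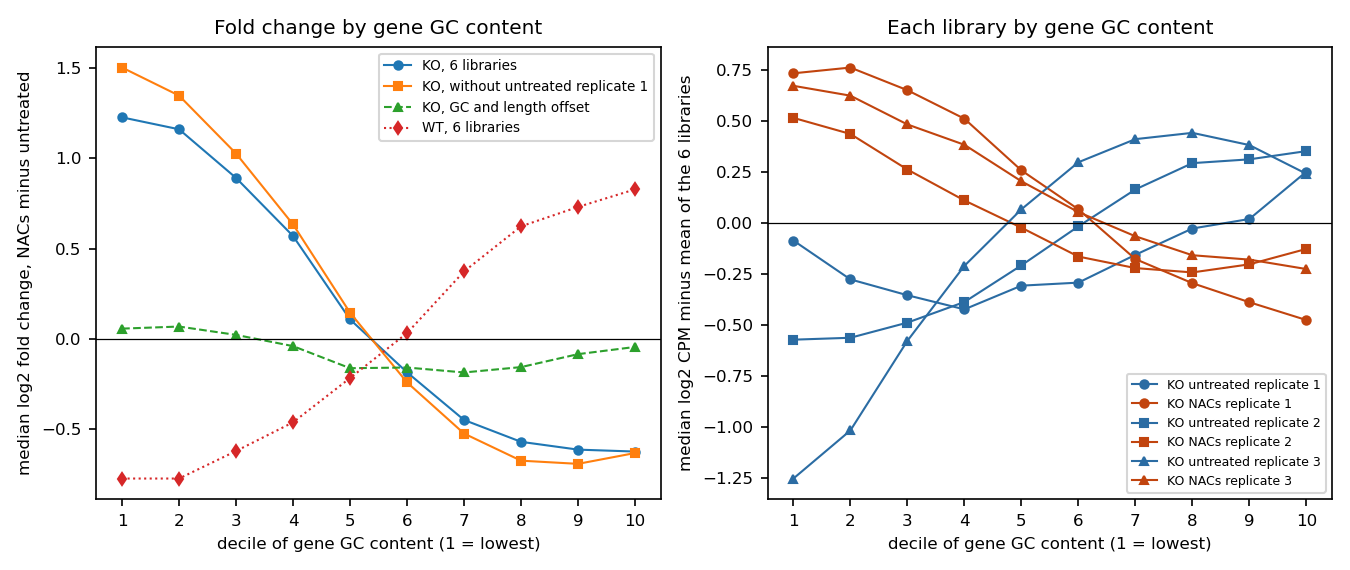
Left, median log2 difference of NACs minus untreated in 10 bins of the genes ordered by GC content, lowest first, for the HDAC3 KO libraries, the same without untreated replicate 1 or with the GC and length offset, and the WT libraries, and right, the median log2 CPM of each HDAC3 KO library minus the mean of the 6. The HDAC3 KO line runs from 1.23 down to -0.62, the offset line stays between -0.19 and 0.07, and the WT line runs from -0.77 up to 0.83.

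To show the base composition in transcripts, the middle 120 coding bases of the longest complete coding transcript are printed for the 3 named genes with the smallest p in each direction, from GENCODE M21 on GRCm38, 5′ to 3′ on the coding strand, with G and C in capitals. The stretches of the called-higher genes Pnpt1, Cd86 and Scfd1 hold 33.3%, 37.5% and 43.3% G and C, and those of the called-lower genes Scamp2, Tmem132a and Myo18a 50%, 62.5% and 64.2%.
Pnpt1: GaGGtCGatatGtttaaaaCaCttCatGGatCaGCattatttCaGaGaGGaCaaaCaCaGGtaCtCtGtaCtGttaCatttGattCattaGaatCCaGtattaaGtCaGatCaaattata
Cd86: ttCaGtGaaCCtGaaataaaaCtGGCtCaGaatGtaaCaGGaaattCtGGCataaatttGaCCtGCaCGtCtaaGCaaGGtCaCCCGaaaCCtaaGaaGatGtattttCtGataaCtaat
Scfd1: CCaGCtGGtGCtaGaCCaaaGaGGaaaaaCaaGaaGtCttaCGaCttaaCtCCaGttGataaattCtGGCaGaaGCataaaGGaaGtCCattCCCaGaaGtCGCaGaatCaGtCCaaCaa
Scamp2: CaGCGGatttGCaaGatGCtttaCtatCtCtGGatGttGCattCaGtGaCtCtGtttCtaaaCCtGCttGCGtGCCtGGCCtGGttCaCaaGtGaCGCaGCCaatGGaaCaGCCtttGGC
Tmem132a: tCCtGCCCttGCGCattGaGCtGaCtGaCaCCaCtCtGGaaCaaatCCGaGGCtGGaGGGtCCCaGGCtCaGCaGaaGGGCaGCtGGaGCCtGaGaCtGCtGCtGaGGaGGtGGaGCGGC
Myo18a: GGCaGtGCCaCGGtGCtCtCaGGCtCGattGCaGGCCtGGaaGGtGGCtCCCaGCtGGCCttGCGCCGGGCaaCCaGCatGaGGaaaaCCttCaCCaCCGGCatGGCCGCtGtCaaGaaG

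Of the 12 leading genes called higher, Clec4e (ENSMUSG00000030142, chr6:123281789-123289870, GRCm38) encodes Mincle, a C-type lectin receptor that recognizes mycobacterial glycolipids and a nuclear protein released from dead cells. It was at 33.8, 11.2 and 25.9 CPM untreated and 358, 160 and 117 with NACs, a 9.01-fold higher level (log2 difference 3.17, SE 0.55, adjusted p = 0.0353). The lowest NACs library lay above the highest untreated one by a wide margin. Groups without overlap were a condition for every leading gene in either direction, so their separation here and below is a description. Cd86 (ENSMUSG00000022901, chr16:36603869-36666081) encodes a costimulatory ligand for T cells and was at 25.9, 15.9 and 20.3 CPM untreated and 262, 167 and 117 with NACs, 8.83-fold higher (log2 difference 3.14, SE 0.41, adjusted p = 0.0353). Its untreated libraries were close together and far below all NACs libraries. Il13ra1, a subunit of the receptor for interleukins IL-4 and IL-13, was at 3.01, 2.73 and 1.97 CPM untreated and 36.2, 13.0 and 12.3 with NACs. Wfdc17, a small secreted protein of myeloid cells, was at 57.7, 49.8 and 20.0 CPM untreated and 504, 138 and 209 with NACs (log2 difference 2.74, adjusted p = 0.0354). Ms4a14, a member of the membrane-spanning 4A family, differed by 2.82 on the log2 scale. Once GC content and length were offset, the log2 differences of these 5 genes were smaller, at 1.97 for Clec4e, 2.14 for Cd86, 1.69 for Il13ra1, 1.76 for Wfdc17 and 1.47 for Ms4a14, and over all 12 leading genes they lay between 1.47 and 2.82.

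Pnpt1 (ENSMUSG00000020464, chr11:29130744-29161828), a mitochondrial RNA-degrading enzyme, was at 2.55, 3.27 and 2.14 CPM untreated and 23.1, 18.9 and 19.3 with NACs (log2 difference 2.94, SE 0.38, adjusted p = 0.0353). All 3 NACs libraries lay far above the untreated ones. Scfd1 (chr12:51377580-51450096), which regulates membrane fusion between endoplasmic reticulum and Golgi, was at 2.78, 7.27 and 2.91 CPM untreated and 32.6, 35.1 and 30.6 with NACs. Capza1, a subunit of the protein that caps actin filaments, was at 18.1, 35.3 and 23.7 CPM untreated and 317, 130 and 133 with NACs (log2 difference 2.91, SE 0.46, adjusted p = 0.0353). For both genes the groups were well separated, and groups without overlap were a condition of the choice. Snx2, a sorting nexin of the endosome, differed by 2.86, and Mospd2, a tether between endoplasmic reticulum and other organelles, by 2.98. Cav1, the main protein of caveolae, rested largely on 1 library, with 1.85, 1.91 and 1.07 CPM untreated and 28.0, 4.30 and 6.30 with NACs (log2 difference 3.03, SE 0.73, adjusted p = 0.0438). Zfp429, a zinc finger protein, differed by 3.05.

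**Figure D3:**
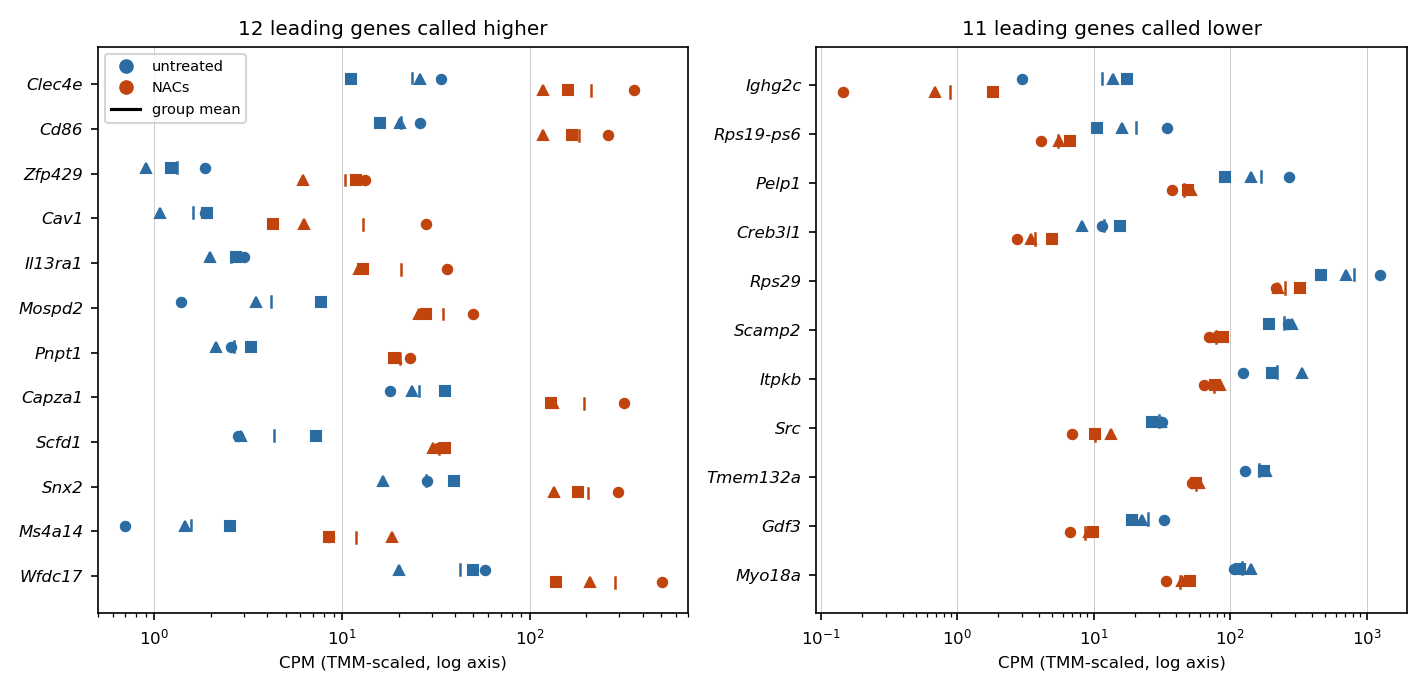
Level (TMM-scaled CPM, log axis) of the 12 leading genes called higher and 11 called lower, 1 point per library with marker shape for the replicate, and a short vertical line for each group's mean. The groups do not overlap for any gene, which the choice of genes required.

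Among the leading genes called lower was Scamp2 (chr9:57560943-57588795), a carrier membrane protein of the secretory route, at 264, 192 and 285 CPM untreated and 70.1, 89.5 and 77.3 with NACs (log2 difference -1.64, SE 0.31, adjusted p = 0.0353). Each NACs library lay below all 3 untreated ones, which the choice of leading genes required. Src (chr2:157418444-157471862), a tyrosine kinase of integrin signalling, was at 32.0, 26.7 and 31.2 CPM untreated and 6.98, 10.3 and 13.5 with NACs (log2 difference -1.54, adjusted p = 0.0437). Tmem132a (chr19:10857822-10869940), a membrane protein of the secretory pathway, was at 128, 177 and 184 CPM untreated and 52.4, 56.5 and 59.7 with NACs. Myo18a (chr11:77763246-77865980), an unconventional myosin, was at 106, 119 and 143 CPM untreated and 33.8, 51.3 and 44.5 with NACs (log2 difference -1.50, SE 0.32, adjusted p = 0.0368). Itpkb, an inositol trisphosphate kinase, differed by -1.54.

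Pelp1, a nuclear receptor coregulator, was at 268, 92.3 and 142 CPM untreated and 37.4, 49.1 and 52.0 with NACs (log2 difference -1.86, adjusted p = 0.0401). Rps29, a protein of the small ribosomal subunit, was at 1259, 466 and 711 CPM untreated and 217, 323 and 224 with NACs. Both were highest in untreated replicate 1. Creb3l1, a transcription factor of the secretory pathway, differed by -1.68, Gdf3, a ligand of the TGF-beta family, by -1.52, and the pseudogene Rps19-ps6 by -1.87. Ighg2c, an immunoglobulin heavy chain constant region made by B lineage cells, had the largest decrease of this set, at 3.01, 17.5 and 14.0 CPM untreated and 0.147, 1.83 and 0.691 with NACs (log2 difference -3.81, SE 0.86, adjusted p = 0.040). The summed B cell markers given above overlapped between the groups. None of the 4 that could be tested was called, against 6.54% of all genes. Cd79a was at -2.36, Cd79b at -1.15, Igkc at -1.10 and Ighm at -0.17 (adjusted p = 0.148, 0.138, 0.228 and 0.86). Reads of Rps29, Rps19-ps6 and other genes with close copies or pseudogenes, such as Rpl4, Rpl5, Rpl11, Rpl13, Cdc42, Capza1, H3f3a and Ybx1, may have been divided or lost in counting, and their values are uncertain to that degree.

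None of the 24 genes of efferocytosis named in the study was called in either direction, against 6.2% higher and 0.338% lower over all genes, and their median log2 difference was -0.33, which moved to -0.16 once GC content and length were offset. Among receptors, Axl was at 26.9, 82.0 and 315 CPM untreated and 27.1, 45.8 and 77.7 with NACs, and Mertk at 153, 31.4 and 28.1 untreated and 62.3, 60.9 and 38.6 with NACs. Both overlapped between the groups, with adjusted p of 0.203 and 0.685. The log2 difference of Mertk was -0.38 over all libraries and 0.81 without untreated replicate 1, its highest library. Without that library Axl was called lower, at -1.98 (adjusted p = 0.0331). The integrin subunit Itgav, with the smallest p of the list, was at 25.7, 32.7 and 15.2 CPM untreated and 60.6, 41.5 and 55.2 with NACs (log2 difference 1.10, SE 0.38, adjusted p = 0.0978). Itgb3, the integrin subunit that pairs with it, differed by -0.71 (adjusted p = 0.440). The scavenger receptor Cd36 was at 71.3, 261 and 48.7 CPM untreated and 445, 208 and 243 with NACs, with untreated replicate 2 inside the range of the NACs libraries (adjusted p = 0.193). Lrp1, which takes up ligand-coated targets, was at 129, 242 and 183 CPM untreated and 324, 187 and 270 with NACs (adjusted p = 0.356).

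Of the bridging and secreted proteins, Mfge8 was at 461, 2769 and 341 CPM untreated and 426, 234 and 229 with NACs, so that untreated replicate 2 alone carried most of the log2 difference of -2.01 (SE 0.73, adjusted p = 0.106). Gas6 was at 121, 189 and 727 CPM untreated and 215, 181 and 251 with NACs, and the sign of its difference turned without untreated replicate 3. Cd5l, a secreted scavenger protein that is the subject of the study, was at 144, 188 and 306 CPM untreated and 40.9, 132 and 174 with NACs (log2 difference -0.88, SE 0.51, adjusted p = 0.26). The groups overlapped. Tgm2, a transglutaminase that aids engulfment, was at 304, 1027 and 1614 CPM untreated and 540, 347 and 444 with NACs (adjusted p = 0.170). Nr1h3, which encodes the sterol-sensing receptor LXR alpha, was at 337, 259 and 331 CPM untreated and 162, 341 and 264 with NACs (adjusted p = 0.602), and its sign turned with library totals alone and with the GC and length offset. Without untreated replicate 1, 3 genes of the list were called higher and 2, Axl and Tgm2, lower, which compares with 21.7% higher and 13.8% lower over all genes.

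Of 28 genes of actin, integrins and phagocytosis, Cdc42 was called higher and none lower, against 6.2% and 0.338% of all genes, with a median of -0.10. Cdc42, the GTPase that starts filopodia and phagocytic cups, was at 218, 266 and 246 CPM untreated and 1366, 785 and 682 with NACs (log2 difference 1.96, SE 0.36, adjusted p = 0.0353). Its groups were clearly apart. The integrin subunit Itgb1 differed by 1.56 (adjusted p = 0.0593) and the adaptor Crk by 1.32 (adjusted p = 0.0587). Itgax, the integrin subunit CD11c, was at 8.34, 122 and 27.0 CPM untreated and 11.1, 8.97 and 12.5 with NACs (adjusted p = 0.0923). Without untreated replicate 1, 6 of these 28 genes were called higher and 9 lower, against 21.7% and 13.8% of all genes, and the median was -0.049.

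The lysosomal list had 2 of 30 genes called higher and none lower, close to the 6.2% and 0.338% of all genes, with a median of -0.36. Lamp2, a membrane protein of lysosomes, was at 129, 215 and 78.1 CPM untreated and 736, 401 and 328 with NACs (log2 difference 1.79, adjusted p = 0.0479). Its lowest NACs library lay above the highest untreated one. The protease Ctsc differed by 1.65 (adjusted p = 0.0629). Lyz2, lysozyme, whose promoter drives the Cre, was at 1361, 2276 and 2659 CPM untreated and 13479, 4714 and 9166 with NACs, 4.35-fold higher (chr10:117277334-117282274, log2 difference 2.12, SE 0.46, adjusted p = 0.0376). Without untreated replicate 1, 4 of the 30 lysosomal genes were called higher and 10 lower, against 21.7% and 13.8% of all genes, and the median was -0.64.

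Of 23 genes of cholesterol synthesis, Sc5d and Hmgcs1 were called higher and none lower, near the 6.2% and 0.338% of all genes, with a median of -0.09 that was -0.38 without untreated replicate 1. Sc5d, a late enzyme of the pathway, was at 3.70, 6.54 and 3.72 CPM untreated and 24.5, 12.8 and 19.2 with NACs, and Hmgcs1, an early one, at 6.95, 7.09 and 4.24 untreated and 26.3, 12.5 and 18.5 with NACs. The log2 differences were 2.00 and 1.66, with adjusted p of 0.0366 and 0.0472. Cyp51 differed by 1.26 (adjusted p = 0.0609). Of 20 genes on a list of LXR targets and cholesterol transport, which also holds the LXR receptor genes, Smpdl3a, a secreted phosphodiesterase, was called higher, at 63.9, 57.4 and 38.3 CPM untreated and 274, 162 and 161 with NACs (log2 difference 1.91, adjusted p = 0.0353). The cholesterol exporter Abca1 differed by 1.48 (adjusted p = 0.0582) and Srebf1 by -0.88 (adjusted p = 0.0956), and the list's median was -0.35. The single call among 20 is near the 6.2% of all genes called higher.

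Of 25 interferon-stimulated genes, 4 were called higher and none lower, which compares with 6.2% and 0.338% of all genes, and the list's median was 0.74. Ifi204, a DNA sensor, was at 15.3, 25 and 12.9 CPM untreated and 93.9, 63.1 and 75.7 with NACs (log2 difference 2.13, SE 0.38, adjusted p = 0.0353). Ifit2, which restrains translation of viral RNA, was at 4.63, 8.99 and 13.4 CPM untreated and 74.5, 31.1 and 53.3 with NACs (log2 difference 2.53, adjusted p = 0.0353). The groups were apart for both, and also for Ifih1, the RNA sensor MDA5, and Ifit1, which differed by 1.94 and 1.87. The 25 genes had a median GC content of 48.4%, below that of all genes. With the GC and length offset the list's median was 0.13, and without untreated replicate 1 it was 0.43, with 8 genes called higher and 4 lower against 21.7% and 13.8% of all genes.

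None of the 20 tested genes for cytokines and chemokines was called, against 6.54% of all genes, with a median of 0.49 that was -0.22 with the GC and length offset. The neutrophil attractant Cxcl2 was at 3.94, 0.772 and 1.80 CPM untreated and 12.0, 6.96 and 6.87 with NACs (log2 difference 2.12, adjusted p = 0.0582). Ccl24, an eosinophil attractant, was at 24.8 CPM in NACs replicate 1 and at 3.66 and 1.59 in the other 2, against 1.62, 1.54 and 1.2 untreated. Il10 differed by 1.61 (adjusted p = 0.115) and the growth factor Csf1 by -1.09 (adjusted p = 0.109). Among 24 immediate early and NF-kB feedback genes, Junb, a subunit of the AP-1 factor, was called lower and none higher, against 0.338% and 6.2% of all genes, and the list's median was -0.15 over all libraries and -0.40 without untreated replicate 1. It was at 282, 231 and 418 CPM untreated and 128, 97.7 and 139 with NACs (log2 difference -1.35, SE 0.34, adjusted p = 0.0466). Klf2 and Egr1 differed by -1.37 and -1.70, with adjusted p of 0.0580 and 0.0891. Their groups did not overlap for Klf2, but did for Egr1, with untreated replicate 2 at 7.18 CPM and NACs replicate 3 at 8.66.

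Of 14 genes for MHC class II and costimulation, Cd86 alone was called, near the 6.2% of all genes called higher, and the list's median was -0.74. H2-DMb1, which loads peptides onto class II molecules, was at 63.7, 75.5 and 87.5 CPM untreated and 29.4, 38.8 and 39.4 with NACs (log2 difference -1.08, adjusted p = 0.0671), and H2-DMa differed by -0.95 (adjusted p = 0.108). The groups did not overlap for either gene. Of 15 genes of alternative activation and tissue macrophages, the mannose receptor Mrc1 was called higher, at 22.7, 39.6 and 23.8 CPM untreated and 133, 75.4 and 92.6 with NACs (log2 difference 1.80, adjusted p = 0.0365). That is again near the share of all genes called higher, and the list's median was 0.067 over all libraries and -0.11 without untreated replicate 1. F13a1 differed by 1.58 (adjusted p = 0.0526) and Il4ra by -0.94 (adjusted p = 0.0948). None of 20 genes of Trem2-expressing lipid-associated macrophages was called, against 6.54% of all genes, and their median was -0.22 over all libraries and -0.41 without untreated replicate 1. Trem2 itself, a lipid receptor, differed by -0.68 (adjusted p = 0.195), and the beta-glucan receptor Clec7a by 1.51 (adjusted p = 0.152).

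Among 25 genes of glycolysis and the hypoxia response, 2 were called higher and 1 lower, against 6.2% and 0.338% of all genes, with a median of -0.53 that was -0.27 with the GC and length offset and -0.13 without untreated replicate 1 as well. Without that replicate and with no offset, the median was -0.63. In that fit 4 of the 25 were called higher and 10 lower, against 21.7% and 13.8% of all genes. Hif1a, the oxygen-regulated transcription factor, was at 17.6, 9.86 and 11.2 CPM untreated and 59.5, 40.6 and 58.0 with NACs (log2 difference 2.05, SE 0.38, adjusted p = 0.0353). Bnip3, a mitophagy receptor, differed by 1.84 (adjusted p = 0.0478). Ldha, which makes lactate, was at 729, 1366 and 1065 CPM untreated and 432, 431 and 414 with NACs (log2 difference -1.31, adjusted p = 0.0473). Its NACs libraries lay within a narrow range below all untreated ones. None of 30 nuclear genes for oxidative phosphorylation was called, against 6.54% of all genes. Their median was -0.49, which became -0.33 without untreated replicate 1, -0.26 with the GC and length offset and 0.018 with both. With both, 1 of the 30 was called higher and 8 lower, against 3.52% and 4.63% of all genes. Over all libraries, Cox5a was at -0.86 and Ndufb2 at -0.92 (adjusted p = 0.121 and 0.131). None of 10 genes encoded by mitochondrial DNA was called, against 6.54% of all genes. Their median was 0.41 (0.26 without untreated replicate 1), and mt-Nd1 differed by -0.76 and mt-Cytb by 0.57. With the GC and length offset the median of these mitochondrial genes turned to -0.65. Without untreated replicate 1 as well it was -0.97, with 5 of the 10 called lower and none higher, against 4.63% and 3.52% of all genes.

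The NRF2, iron and heme list held 3 called-higher genes of 19 and none lower, against 6.2% and 0.338% of all genes, with a median of 0.87 over all libraries and 0.80 without untreated replicate 1. Cat, catalase, was at 9.03, 15.7 and 21.1 CPM untreated and 93.4, 48.6 and 66.8 with NACs (log2 difference 2.17, SE 0.43, adjusted p = 0.0353). Txnrd1, which reduces thioredoxin, was at 27.1, 45.1 and 49.2 CPM untreated and 166, 85.6 and 154 with NACs (log2 difference 1.73, adjusted p = 0.0386). Gclm, the modifier subunit of the enzyme that starts glutathione synthesis, was at 66.2, 26.4 and 36.3 CPM untreated and 128, 115 and 147 with NACs (log2 difference 1.61, adjusted p = 0.0454). All 3 were higher in every NACs library than in any untreated one, as were 750 of the 753 called-higher genes. The catalytic subunit Gclc differed by 1.52 (adjusted p = 0.0519). With the GC and length offset their log2 differences were 2.22 for Cat, 1.66 for Txnrd1 and 1.28 for Gclm, while the list's median was 0.11. Of 20 genes of the unfolded protein and heat shock responses, the chaperone Hspa5 was called higher, near the 6.2% of all genes, at 56.3, 71.5 and 65.0 CPM untreated and 151, 141 and 162 with NACs (log2 difference 1.24, adjusted p = 0.0435). Ddit3, a transcription factor of endoplasmic reticulum stress, differed by -1.35 (adjusted p = 0.0542), the heat shock gene Hspa1a by -1.83 (adjusted p = 0.0566), and the list's median was -0.54 over all libraries and -0.82 without untreated replicate 1. Without that replicate 5 of the 20 were called higher and 8 lower, against 21.7% and 13.8% of all genes.

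Of 30 cytosolic ribosomal protein genes, 2 were called higher and none lower, about the 6.2% and 0.338% of all genes, with a median of -0.35 that was -0.17 without untreated replicate 1. Rpl5 was at 213, 124 and 102 CPM untreated and 592, 394 and 330 with NACs, and Rpl4 at 101, 116 and 145 untreated and 428, 237 and 274 with NACs (log2 differences 1.58 and 1.37, adjusted p = 0.0454 and 0.0459). Rps29, called lower and described above, is not among the 30 chosen for this list. Differences of both signs stood in it, with Rpl11 at 1.64 (adjusted p = 0.0552) and Rpl13 at -1.02 (adjusted p = 0.0621). Of 20 proliferation genes, Pcna, the clamp of DNA polymerases, was called higher, near the 6.2% of all genes, at 153, 125 and 120 CPM untreated and 327, 332 and 287 with NACs (log2 difference 1.25, adjusted p = 0.0418). Its difference turned to -0.14 with the GC and length offset and without untreated replicate 1. The median of these 20 genes was 0.16 over all libraries and 0.091 without that replicate, and it turned to -0.25 with the offset, to -0.35 with both and to -0.042 with the size factors of DESeq2. The mitotic kinase Plk1 differed by -1.37 (adjusted p = 0.0621). None of 12 replication-dependent histone genes was called, against 6.54% of all genes, and their median was -1.16 over all libraries and -0.40 without untreated replicate 1, with Hist1h3a at -1.84 (adjusted p = 0.147). None of 13 nuclear and small RNA host noncoding genes was called either, with Neat1 at 1.6 (adjusted p = 0.0530) and Snhg8 at -1.73 (adjusted p = 0.0531).

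None of 18 chromatin genes, the partners of HDAC3 among them, was called, against 6.54% of all genes, and their median was -0.14, which turned to 0.83 without untreated replicate 1 and to 0.29 with the GC and length offset as well. Gps2, a subunit of the corepressor complex that holds HDAC3, was at 239, 89.5 and 98.2 CPM untreated and 40.4, 57.8 and 48.7 with NACs (log2 difference -1.53, SE 0.43, adjusted p = 0.0576). Tbl1xr1, another subunit, differed by 1.44 (adjusted p = 0.0684) and Rcor1, a corepressor of other deacetylases, by 1.28 (adjusted p = 0.0641). Without untreated replicate 1, 6 of the 18 were called higher and 3 lower, against 21.7% and 13.8% of all genes.

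The sign of other medians also depended on the fit. The median turned to 0.022 for cholesterol synthesis and to -0.55 for the noncoding genes when the offset was used. With it and without untreated replicate 1 it turned to -0.19 for interferon-stimulated genes, to 0.089 for immediate early genes and to 0.0090 for the LXR list. Library totals alone, which raised the median of all genes to 0.30, turned it to 0.0070 for efferocytosis, 0.22 for actin and integrins, 0.11 for the Trem2 list, 0.18 for immediate early genes, 0.23 for cholesterol synthesis and 0.21 for chromatin genes. The offset alone kept the sign but brought the median to -0.040 for the LXR list, -0.35 for the unfolded protein list and -0.39 for MHC class II.

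**Figure D4:**
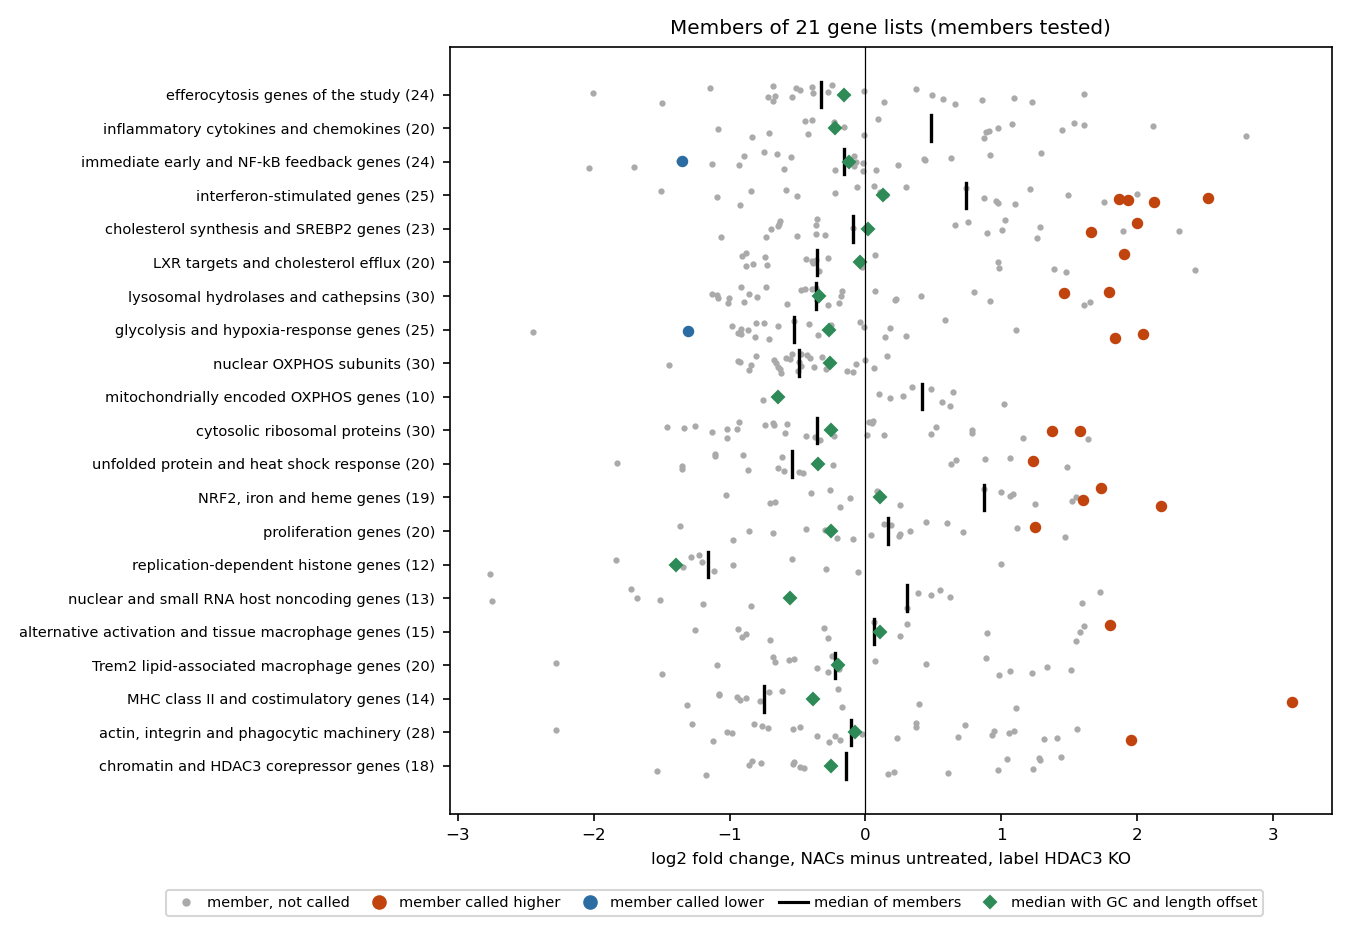
Log2 difference of NACs minus untreated for the tested members of each of the 21 gene lists (number tested in brackets), 1 point per gene, with called genes coloured, a line at the list's median and a diamond at its median with the GC and length offset. Over all 6 libraries, medians run from -1.16 for replication-dependent histone genes to 0.87 for the NRF2, iron and heme list, and no list has more than 4 called members.

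Set beside the other groups, the called genes took a different order. After scaling all 18 libraries together and centring each gene, the median log2 level of the 753 called-higher genes was -1.33 to -0.75 in untreated HDAC3 KO libraries, 0.53 to 0.90 with NACs and -0.91 to -0.03 with ACs. In libraries labelled WT it was 0.66 to 0.90 untreated, -0.75 to 0.38 with NACs and -0.27 to 0.72 with ACs. The range with NACs under the HDAC3 KO label overlapped that of the untreated WT libraries, with a count-weighted GC content of 52.77% to 53.39% in the first and 52.46% to 52.97% in the second. The 41 called-lower genes were at 0.96 to 1.18 in untreated HDAC3 KO libraries, -0.96 to -0.54 with NACs and 0.36 to 0.84 with ACs, and at -1.11 to -0.65, -0.36 to 1.05 and -0.72 to 0.18 in the WT groups in the same order. The HDAC3 KO untreated and NACs libraries chose these genes, so their own values are a description.

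**Figure D5:**
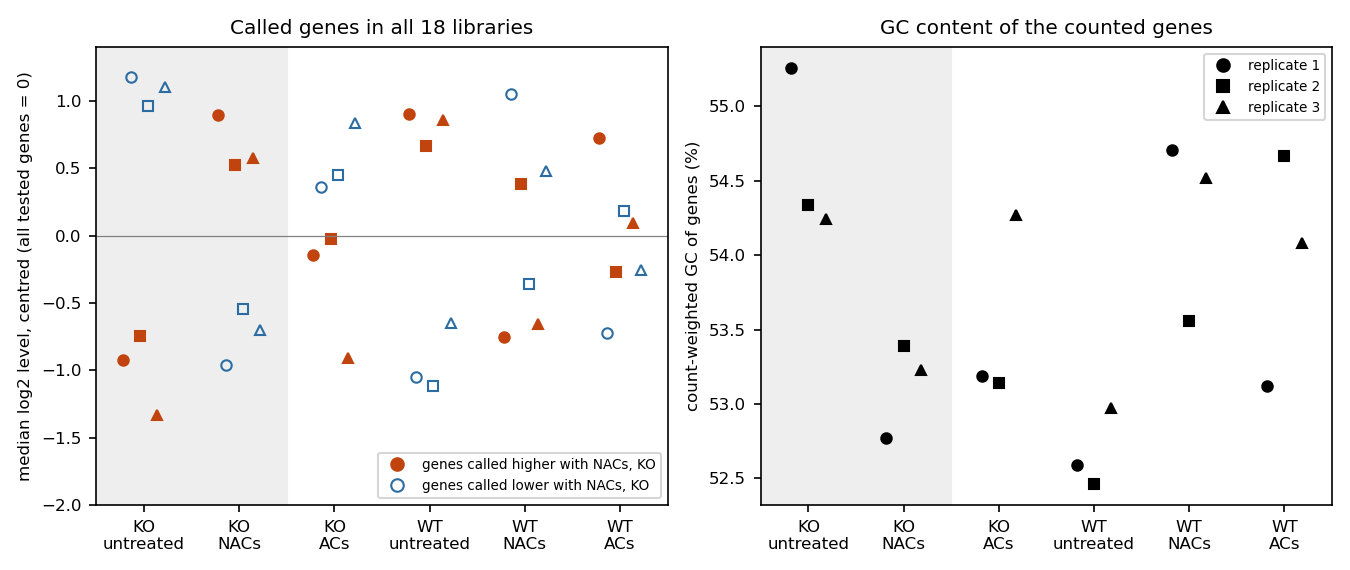
Left, the median centred log2 level of the 753 called-higher (filled) and 41 called-lower (open) genes in each of the 18 libraries, by genotype label and treatment, and right, the count-weighted GC content in percent, with marker shape for the replicate and the compared groups shaded. The called-higher genes lie at -1.33 to -0.75 in untreated HDAC3 KO libraries, 0.53 to 0.90 with NACs and 0.66 to 0.90 in untreated WT libraries.

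The difference with NACs was itself tested between the labels. Of 13005 genes tested over 12 libraries (edgeR, interaction term), 2869 differed more upward under the HDAC3 KO label and 1661 more downward (34.8% of genes, 22.1% upward and 12.8% downward). With the GC and length offset the number was 1353, and 4125 with the replicate numbers as a block. Cd86 had the smallest p, at 396, 193 and 260 CPM in untreated WT libraries and 65.7, 108 and 22.9 with NACs, against 26.3, 16.7 and 21.5 untreated and 277, 175 and 124 with NACs under the HDAC3 KO label, all on the scale of that fit. It was thus lower with NACs in every WT library and higher in every HDAC3 KO one, a difference of differences of 5.27 (adjusted p = 0.000636). Serinc1, a membrane protein of serine-derived lipids, and Zfp277, a zinc finger protein, followed with 4.02 and 4.08. Under the WT label alone, 499 genes were called higher with NACs and 516 lower (8.52% of 11912, 4.19% higher and 4.33% lower), and none with the GC and length offset, where 2049 had an unadjusted p under 0.05. The untreated and NACs libraries of each label enter both its own comparison and the interaction.

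Apoptotic and non-apoptotic cells were also compared under the HDAC3 KO label. With ACs, 325 genes were called higher than with NACs and 579 lower (7.38% of 12244, 2.65% higher and 4.73% lower). Without ACs replicate 1 none was called, with 2169 at an unadjusted p under 0.05, while without ACs replicate 2 there were 3013 calls. With the GC and length offset 654 genes were called, 260 higher and 394 lower (5.34% of 12244). Pdcd10, a scaffold protein of endothelial junctions and kinase signalling, had the smallest p, at 188, 183 and 137 CPM with NACs and 6.35, 16.5 and 14.2 with ACs on the scale of that fit (log2 difference of ACs minus NACs -3.78, adjusted p = 1.5e-05). Samd9l, an interferon-regulated inhibitor of growth, was at 22.8, 20.0 and 32.3 CPM with NACs and 2.46, 2.35 and 3.75 with ACs. Eef1e1, part of the complex of transfer RNA synthetases, was at 74.1, 112 and 70.6 CPM with NACs and 12.5, 14.5 and 10.5 with ACs. In all 3 the ACs libraries lay far below the NACs ones. Against untreated cells, NACs differed by 1.64 for Pdcd10 (adjusted p = 0.0752), by 2.71 for Samd9l (adjusted p = 0.0353) and by 1.03 for Eef1e1 (adjusted p = 0.250). Both comparisons share the NACs libraries. Of the genes described above, ACs minus NACs was -2.45 for Cd86 (adjusted p = 0.0013), -3.19 for Clec4e (adjusted p = 0.0010), 1.75 for Cd5l (adjusted p = 0.018) and 1.81 for Axl (adjusted p = 0.018).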

How the data were processed

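RNA of mouse macrophages was sequenced in 18 libraries. Per the submitters' processing notes, reads were handled with Trimmomatic 0.36, STAR 2.5.2b and featureCounts of Subread 1.5.2 on GRCm38. The strand setting and annotation are not given in the sources used here. The deposited values are whole counts per gene, raw and not normalized by the authors. Here, genes were kept by the filter of edgeR 4.0.16 (minimum count 10, total 15), scaled by TMM and tested by its robust quasi-likelihood test, libraries of the compared groups alone, with no covariate, and Benjamini-Hochberg adjustment over all genes tested (threshold 0.05). An exact permutation test of 3 libraries against 3 cannot go below 0.1. R 4.3.3, DESeq2 1.42.0, limma 3.58.1 and mgcv 1.9.3 (the GC and length offset) gave alternatives. A count of 0 allows up to 3 counts, from counting error only. Gene lists, members and tests were chosen with earlier results of these data known. Named were, per direction, the 12 called genes with the largest difference among those whose groups did not overlap and whose mean reached 10 CPM in the higher group, predicted genes left out, then the 4 list members with the smallest p, the study's own genes, markers, and the 3 genes with the smallest p of each further comparison. A few items are not reported here.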

Additional observations from a re-analysis of the deposited data

Results flagged for a closer look

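The difference with NACs differed between the genotype labels by the interaction term of edgeR for 4530 of 13005 genes. Of the 108 genes that the text names, 92 passed that test, with adjusted p from 0.000636 to 0.0487, and for all 92 the difference had opposite signs under the 2 labels. Most of the 108 were named for their difference in the same HDAC3 KO libraries that enter this test, so the number that passed is partly set by that choice and is a description. With the GC and length offset 52 of the 92 passed. The 40 that did not were Rps19-ps6, Gdf3, Cd36, Mfge8, Tgm2, Il10, Junb, Klf2, Egr1, Ifih1, Ifit1, Sc5d, Hmgcs1, Cyp51, Srebf1, Lamp2, Ctsc, Hif1a, Rpl5, Rpl4, Rpl13, Hspa5, Hspa1a, Gclm, Gclc, Pcna, Plk1, Mrc1, F13a1, Il4ra, Trem2, Clec7a, H2-DMa, Cdc42, Itgb1, Gps2, Rcor1, Tbl1xr1, Thy1 and Pdcd10. Some of these 40 became much smaller with the offset, with Pcna at 0.21, Cd36 at 0.31, Itgb1 at 0.61 and Cdc42 at 1.24. Others changed less, with Mfge8 at -3.05, Thy1 at -2.88, Gdf3 at -2.26, Gclm at 2.15 and Gclc at 1.78. A lost call thus did not always come with a much smaller estimate, but none of these values passed the test with the offset. Under the HDAC3 KO label, untreated replicate 2 alone carried most of the difference of Mfge8, and Thy1 was at low levels. The values below are the log2 difference of NACs minus untreated under the HDAC3 KO label minus that under the WT label, and no explanation was tested. Among leading genes called higher with NACs, the value was Cav1 5.72, Clec4e 5.33, Cd86 5.27, Il13ra1 5.22, Capza1 4.81, Pnpt1 4.67, Wfdc17 4.52, Mospd2 4.49, Ms4a14 4.48, Snx2 4.42, Zfp429 4.40 and Scfd1 4.35. Among leading genes called lower with NACs, the value was Ighg2c -10.03, Pelp1 -3.42, Tmem132a -3.17, Rps29 -3.09, Src -2.90, Rps19-ps6 -2.90, Creb3l1 -2.80, Scamp2 -2.78, Itpkb -2.41, Gdf3 -2.40 and Myo18a -2.27. That of Ighg2c, a gene of B lineage cells, had an SE of 2.41. In separate fits its difference was -3.81 under the HDAC3 KO label and 6.32 under the WT label. Its HDAC3 KO levels with NACs were near the floor, at 0.147, 1.83 and 0.691 CPM. Among genes of recognition, engulfment and the cytoskeleton, the value was Cdc42 3.21, Itgb1 2.56, Crk 2.26, Cd36 2.15, Itgav 2.05 and Lrp1 1.43, and below 0 it was Mfge8 -4.12, Itgax -4.09 and Tgm2 -1.98. Among lysosomal and sterol genes, the value was Ctsc 3.39, Lyz2 3.39, Sc5d 3.36, Smpdl3a 3.31, Hmgcs1 3.19, Abca1 3.12, Lamp2 3.07 and Cyp51 2.37, and below 0 it was Srebf1 -1.62. Among inflammatory, immediate early and interferon-stimulated genes, the value was Ifit2 4.26, Cxcl2 3.72, Ifi204 3.63, Ifih1 3.39, Il10 3.35 and Ifit1 3.26, and below 0 it was Junb -2.11, Klf2 -2.10 and Egr1 -2.0. Among genes of antigen presentation and macrophage state, the value was F13a1 2.91, Mrc1 2.90 and Clec7a 2.5, and below 0 it was H2-DMb1 -2.37, H2-DMa -1.97, Il4ra -1.90 and Trem2 -1.66. Among metabolic and stress genes, the value was Cat 4.02, Hif1a 3.43, Bnip3 3.01, Txnrd1 2.84, Gclm 2.66, Gclc 2.28 and Hspa5 1.78, and below 0 it was Ldha -2.62, Hspa1a -2.49, Ddit3 -2.44, Ndufb2 -1.55 and Cox5a -1.42. Among genes of translation, growth, noncoding RNA and chromatin, the value was Neat1 2.94, Rpl11 2.86, Rpl5 2.85, Rcor1 2.52, Tbl1xr1 2.40, Rpl4 2.21 and Pcna 1.96, and below 0 it was Plk1 -3.19, Snhg8 -2.70, Gps2 -2.53 and Rpl13 -1.77. Among the markers and the genes named from the other comparisons or below, the value was Thy1 -3.71, Cd24a 3.26, Rnf7 3.50, Slc25a37 3.81, Ybx1 2.74, H3f3a 3.17, Aph1c -2.55, Marc2 -2.52, Serinc1 4.02, Zfp277 4.08, Pdcd10 2.51 and Samd9l 4.39.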

How the results depend on the processing

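Of the 108 genes named, 56 were called. For NACs against untreated in HDAC3 KO libraries, the 794 calls became 2112 with library totals alone, 2308 with the DESeq2 Wald test, 1608 with limma-voom and 1479 with no filter on low counts. They became 737 with at least 10 counts in every library and 847 with all 18 libraries in 1 fit. The share of calls that were higher was 94.8% in edgeR, 57.6% in DESeq2, 80.1% with no filter and 77.2% with all 18 libraries. No gene was called with the size factors of DESeq2 (4004 at an unadjusted p under 0.05), with the GC and length offset (1927), with the replicate block (2882) or with the replicate block and that offset together (1267). Leaving out 1 library gave 0 to 4441 calls, the last without untreated replicate 1. Chosen after seeing the data, the same fit without that library gave 1018 calls with the GC and length offset, 4658 with DESeq2 size factors, 5094 with the DESeq2 Wald test and 3191 with the replicate block. The labels do not say whether same-numbered samples shared an animal or a day. The deviations of same-numbered libraries correlated at -0.199, -0.222 and 0.162, and not every sample correlated best with its own number. The main fit therefore has no block, but these values do not settle whether the numbers pair the samples. Of the 794 genes, 793 kept their sign with the GC and length offset and 776 with it and without untreated replicate 1. For the interaction, 4530 calls became 1353 with the GC and length offset, chosen after seeing the data, 4125 with the replicate block and 3043 to 6297 with 1 library left out. For ACs against NACs, 904 calls became 1430 in DESeq2, 1400 with the replicate block and 0 (without ACs replicate 1) to 3013 (without ACs replicate 2). They became 835 with DESeq2 size factors and 654 with the GC and length offset, the offset chosen after seeing the data. Some uncalled genes turned sign. Nr1h3, at -0.27, was at 0.082 with library totals, 0.18 with the GC and length offset, 0.17 with block and offset, and, without untreated replicate 1, 0.42 with the offset and 0.0089 with the block. Mertk, at -0.38, was at 0.15 in limma-voom and 0.059 with the block, at -0.79 to 0.81 with 1 library left out, the highest without untreated replicate 1, and, without that library, at 0.20 with the offset and 0.68 with DESeq2 size factors, the DESeq2 Wald test or the block. Gas6 was at 0.19 with block and offset, and with 1 library left out at -1.09 to 0.38, the highest without untreated replicate 3. Hdac3 was at -1.02 to 0.22 with 1 library left out, above 0 without untreated replicate 3 or NACs replicate 1, and at 0.49 without untreated replicate 1 with the block. The gene mt-Cytb was at -0.79 with the offset, -0.54 with block and offset and -1.21 with the offset without untreated replicate 1. With that last setting Cd36 was at -0.38, Itgb1 at -0.043 and the called gene Pcna at -0.14. Adgre1 was at -0.086 with the offset and, without untreated replicate 1, at -0.52 with the offset and -0.11 with DESeq2 size factors or its Wald test. Of 21 list medians, 5 turned sign with the offset, 6 with library totals, 2 with DESeq2 size factors and 1 to 3 with 1 library left out. The cause of these changes was not tested. Untreated replicate 1, with 4704491 counts, limits the low-count genes.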

Other observations

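Chosen after their values were seen, the genes called over all 6 libraries, without untreated replicate 1, and without it and with the GC and length offset were 180 higher with NACs and 23 lower. Their median GC content was 48.0% and 53.4%. The genes named below also had groups that did not overlap and a mean of at least 10 CPM in the higher group. Predicted genes were left out. Ranked under these conditions by the log2 difference of the last of the fits, the first 5 higher genes were Cd24a (2.97), a surface protein that engages Siglec receptors, Rnf7 (2.87), a subunit of cullin ubiquitin ligases, Slc25a37 (2.40), the mitochondrial iron importer mitoferrin, Ybx1 (2.28), an RNA-binding protein, and H3f3a (2.24), which encodes histone H3.3. Cd24a was at 8.80, 4.81 and 3.60 CPM untreated and 36.3, 27.3 and 17.1 with NACs, and Rnf7 at 35.0, 19.4 and 12.8 untreated and 131, 81.4 and 102 with NACs. Slc25a37 was at 15.3, 13.6 and 10.3 CPM untreated and 59.6, 37.5 and 57 with NACs. Every NACs library was above every untreated one for these 3, which the choice of genes required.

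The first 5 lower genes were Ighg2c (-3.91), Aph1c (-2.19), a subunit of gamma-secretase, Itpkb (-1.85), Marc2 (-1.43), a mitochondrial enzyme that reduces amidoximes, and Ldha (-1.40). Aph1c was at 121, 106 and 94.7 CPM untreated and 36.6, 48.5 and 46.8 with NACs, and Marc2 at 68.1, 49.8 and 58.9 untreated and 16.1, 21.8 and 25.9 with NACs. Both had narrow groups, and their lack of overlap was again required by the choice.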
